A study of Mus musculus with 15 samples.

Results

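Reactive astrocyte genes and genes of the STAT3 pathway were followed in hippocampal RNA of 15 female mice. The set held 9 genes chosen by name, *Gfap*, *Vim*, *Osmr*, *Lcn2*, *Serpina3n*, *S1pr3*, *Cd44*, *Stat3* and *Socs3*, out of 55401 genes in the count table, and all 9 were among the 19536 genes with enough reads to be tested. The mice were 18 to 20 months old and formed 4 groups, namely WT mice given vehicle (n = 4), WT mice given DHA (n = 4), Tg2576 mice given vehicle (n = 4) and Tg2576 mice given DHA (n = 3). Tg2576 mice, labelled Tg2576 +/+, carry human APP with the Swedish mutation driven by the prion promoter, a model of amyloid deposition that rests on overexpression of that protein, and the WT mice, labelled Tg2576 -/-, were their littermates. DHA, an omega-3 fatty acid of fish oil, was given by gavage at 450 mg/kg each day for 5 weeks, and sesame oil was the vehicle. The comparisons addressed whether these genes differed with the transgene and whether DHA moved them in either genotype.

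Astrocytes respond to injury, inflammation and amyloid plaques by building up their intermediate filaments and by secreting acute-phase proteins. Much of this reactive state is driven by cytokines of the interleukin 6 family, which bind receptors that contain gp130, activate JAK kinases and lead to phosphorylation of STAT3. STAT3 then enters the nucleus and induces, among others, *Gfap* and *Socs3*, and SOCS3 protein in turn blocks the receptor complex. Phosphorylation is not visible in RNA counts. Whole hippocampal tissue was sequenced, so a larger number of cells of a type and more RNA per cell cannot be told apart.

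The promoters of *Gfap* and *Socs3* are shown because both genes are textbook targets of STAT3 and because theirs were the promoters of the set that held the STAT core motif. RefSeq promoters on GRCm38.p6, which span 250 bases before to 50 bases after the start of a gene, were found for 9 of 9 genes. The letters TTCNNNGAA, which read the same on both strands, were in the window of 2 of the 9 genes and in 8.30% of all 32851 promoters. The stricter form TTCCNGGAA, which lies within the first motif, was in the *Gfap* window alone among the 9 and in 1.15% of all promoters. Capitals mark the motif. RefSeq's start lies inside the longer GENCODE span of both genes given with their values. With the RefSeq start as position 0, the motif begins at position -2 in *Gfap* (chr11:102897151-102897450, minus strand) and at position -154 in *Socs3* (chr11:117969317-117969616, minus strand).
Gfap: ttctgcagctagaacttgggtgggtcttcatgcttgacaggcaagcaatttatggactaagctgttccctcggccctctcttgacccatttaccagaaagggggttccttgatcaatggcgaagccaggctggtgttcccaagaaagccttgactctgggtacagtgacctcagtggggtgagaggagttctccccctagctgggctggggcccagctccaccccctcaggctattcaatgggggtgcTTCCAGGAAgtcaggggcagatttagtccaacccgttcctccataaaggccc
Socs3: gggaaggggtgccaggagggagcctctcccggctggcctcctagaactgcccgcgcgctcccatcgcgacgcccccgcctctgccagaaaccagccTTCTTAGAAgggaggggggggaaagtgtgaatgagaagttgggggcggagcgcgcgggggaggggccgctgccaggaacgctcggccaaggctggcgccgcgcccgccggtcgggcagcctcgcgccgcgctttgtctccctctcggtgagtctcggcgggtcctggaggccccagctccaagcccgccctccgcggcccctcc
These are matches of letters in a short window, and no binding was measured.

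Levels are given as CPM, counts divided by the size of the library, after TMM scaling, a correction for library composition. Per kilobase of exon, the scale on which genes can be compared, *Gfap* was the most abundant of the 9 genes in WT vehicle mice, at 138 ± 14.4 CPM per kb (SD, n = 4). *Serpina3n* followed at 30.2 ± 3.63, *Vim* at 10.8 ± 0.616, *Stat3* at 6.66 ± 0.355 and *S1pr3* at 2.13 ± 0.202 CPM per kb. *Socs3* (0.837 ± 0.129), *Cd44* (0.608 ± 0.129), *Osmr* (0.607 ± 0.152) and *Lcn2* (0.280 ± 0.172 CPM per kb) came last, and *Cd44* and *Osmr* did not differ beyond their spread. In Tg2576 vehicle mice the first 6 genes had the same order, ending with *Socs3* (1.76 ± 0.234), and *Osmr* (1.09 ± 0.223), *Lcn2* (1.08 ± 0.602) and *Cd44* (0.914 ± 0.504 CPM per kb) did not differ from each other beyond their spread.

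Most of the set was higher in Tg2576 than in WT mice. Averaged over both treatments, 7 of the 9 genes rose and 0 fell, whereas 3.85% of all genes were called in either direction and 1.94% were called higher in Tg2576. The exceptions were *Cd44* and *Stat3*. The median difference was 0.83 on the log2 scale for the 9 genes and -0.00435 for all genes. The 9 genes were chosen with earlier results of these data known, so their excess over all genes is a description and not an independent test. Under vehicle 6 of the 9 genes rose (3.09% of all genes called, 1.16% called higher), and under DHA 3 rose (1.75% called, 1.06% called higher). The test was edgeR's quasi-likelihood test over all 19536 genes, a call is an unadjusted p under 0.01, the study's threshold, and the adjusted p given beside each gene is Benjamini-Hochberg over the same genes. An adjusted p under 0.05 was reached by 3 of the 9 genes in the averaged comparison, *Gfap*, *Vim* and *Socs3*, and by 0.205% of all genes. Under vehicle and under DHA, 0 of the 9 genes reached it (0.0154% and 0.00512% of all genes), beside 7 and 6 of the 9 with an unadjusted p under 0.05.

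**Figure D1:**
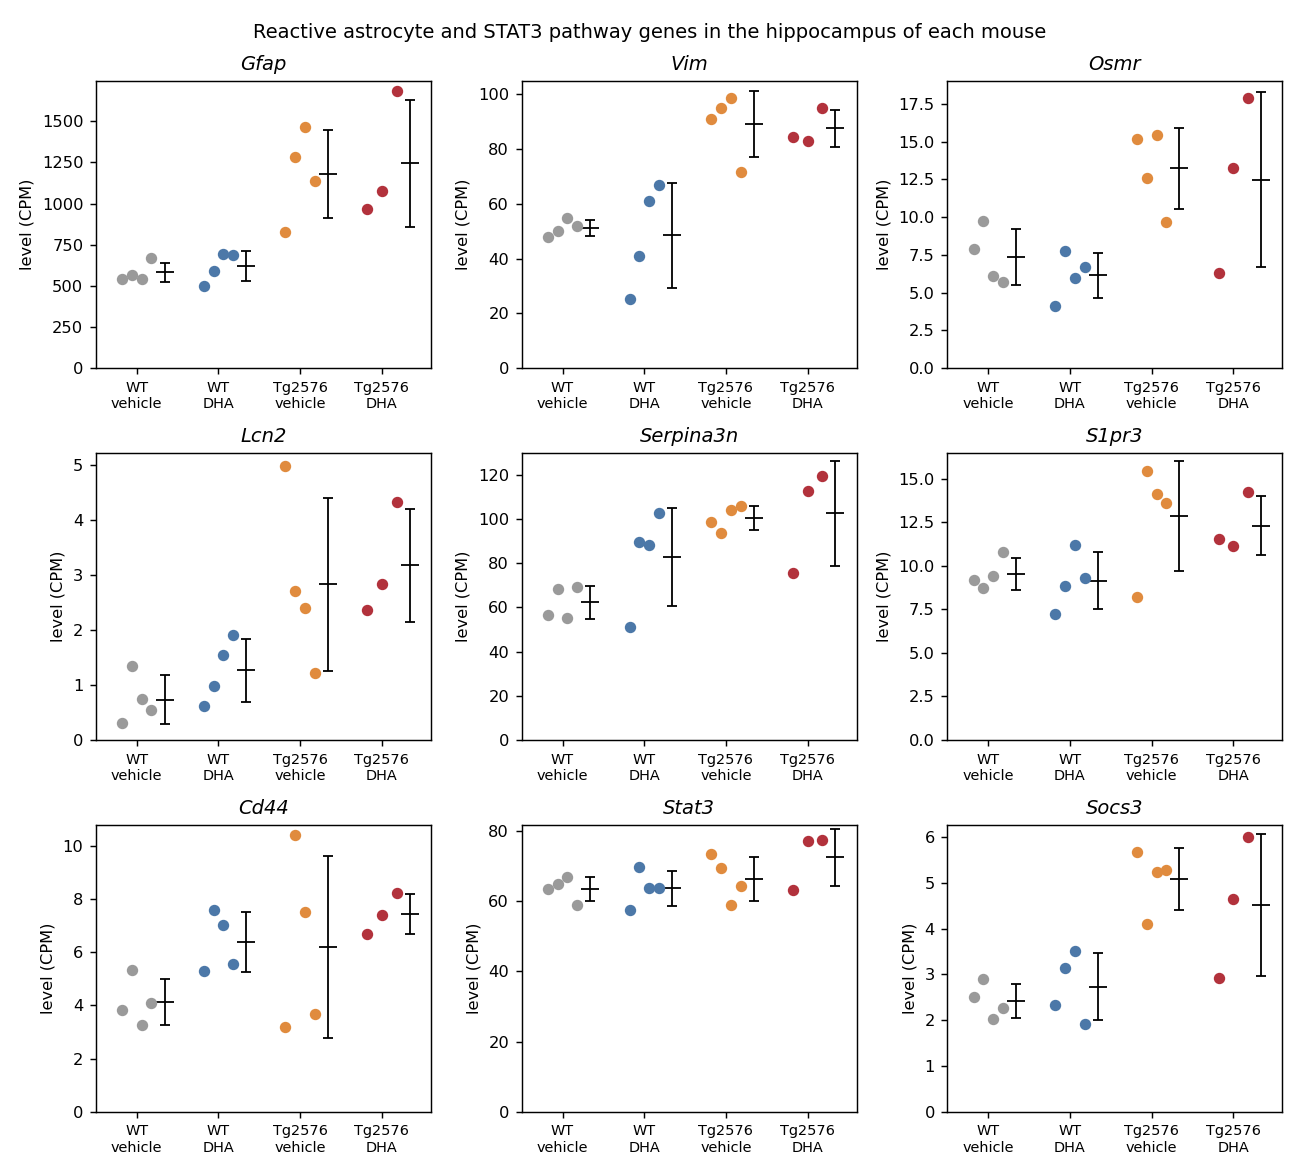
Level in CPM (vertical axis, from 0) of each of the 9 genes in the 15 mice by group, with 1 point per mouse and the group mean ± SD. All 7 Tg2576 mice lie above all 8 WT mice for *Gfap* and *Vim*, whereas the genotypes overlap for *Stat3* and *Cd44*.

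Both intermediate filament genes of the set separated the genotypes without overlap. *Gfap* (ENSMUSG00000020932.14, chromosome 11, 102887336 to 102900912, minus strand) encodes glial fibrillary acidic protein, the usual mark of a reactive astrocyte. Its level was 543, 568.4, 544 and 670.4 CPM in WT vehicle mice and 499.9, 593, 693 and 689 CPM in the WT group given DHA. Tg2576 mice had 830.4, 1283, 1465 and 1135 CPM under vehicle and 969.5, 1079 and 1686 CPM under DHA. The lowest Tg2576 mouse was thus above the highest WT mouse of either treatment. The mean was 599.9 ± 74.6 CPM (SD, n = 8) in WT and 1207 ± 295 CPM (SD, n = 7) in Tg2576 mice. Averaged over treatments *Gfap* was 2.02-fold higher in Tg2576 mice (95% confidence interval 1.66 to 2.45, log2 difference 1.01, SE 0.132), with an edgeR adjusted p of 0.00457. An exact permutation test of genotype within treatment gave p = 4.08e-04, the smallest that its 2450 arrangements allow. The difference was of similar size under vehicle (log2 1.02, SE 0.181) and under DHA (log2 1.01, SE 0.192), and the interaction was -0.0108 (95% confidence interval -0.57 to 0.55).

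*Vim* (ENSMUSG00000026728.9, chromosome 2, 13573927 to 13582826, plus strand) encodes vimentin, the filament partner of GFAP that endothelial, meningeal and ependymal cells also make. It measured 47.9, 50.1, 54.8 and 52.0 CPM in WT vehicle mice and 25.3, 40.8, 61.2 and 67.0 CPM in WT DHA mice. Tg2576 mice measured 90.9, 94.9, 98.8 and 71.7 CPM under vehicle and 84.6, 83.0 and 95.2 CPM under DHA. Again no WT mouse reached a Tg2576 mouse, although the WT DHA mice spread widely, with a coefficient of variation of 39.4% against 5.70% in WT vehicle mice. *Vim* was 1.77-fold higher in Tg2576 mice (95% confidence interval 1.41 to 2.23, log2 0.83, SE 0.155), with an edgeR adjusted p of 0.0486 and an exact permutation p of 0.00122. Its call under DHA (log2 0.85, SE 0.227, exact permutation p = 0.0857) was lost in a fit of the 2 DHA groups alone (log2 0.86). Of all genes tested, 0.189% were higher in every Tg2576 than in every WT mouse, and of the 9 genes these were *Gfap* and *Vim*. Of 5 intermediate filament genes of glia, the other 3, *Nes*, *Synm* and *Des*, were not called, at log2 differences of 0.00369, -0.15 and -0.18 (edgeR adjusted p = 0.996, 0.584 and 0.804).

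Among the receptors of the set, *Osmr* and *S1pr3* rose. *Osmr* (ENSMUSG00000022146.12, chromosome 15, 6813577 to 6874969, minus strand) encodes the chain that pairs with gp130 to bind oncostatin M. Its level was 7.90, 9.72, 6.08 and 5.72 CPM in WT vehicle mice and 4.14, 7.73, 6.0 and 6.72 CPM in WT DHA mice. Tg2576 mice had 15.2, 12.6, 15.4 and 9.67 CPM under vehicle and 6.33, 13.3 and 17.9 CPM under DHA. Thus 5 of 7 Tg2576 mice were above every WT mouse, and Tg2576 DHA replicate 1, at 6.33 CPM, lay among the WT mice. *Osmr* was 1.91-fold higher in Tg2576 mice (95% confidence interval 1.43 to 2.56, log2 0.93, SE 0.200), with an edgeR adjusted p of 0.0739 and an exact permutation p of 0.00367. It was called under vehicle (log2 0.85, SE 0.272, exact permutation p = 0.0571) and under DHA (log2 1.02, SE 0.293, exact permutation p = 0.114). The first call was lost when WT vehicle replicate 1, 3 or 4 or Tg2576 vehicle replicate 1, 2 or 3 was left out (lowest log2 0.75), and the second with limma-voom (log2 0.91) and without WT DHA replicate 1 or Tg2576 DHA replicate 2 or 3 (lowest log2 0.67).

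*S1pr3* (ENSMUSG00000067586.4, chromosome 13, 51408639 to 51422797, plus strand) encodes a receptor of sphingosine 1-phosphate, a lipid signal, and shares 45 exonic bases with a gene on the other strand, which counting without strand cannot tell apart. It was 9.17, 8.70, 9.39 and 10.8 CPM in WT vehicle mice and 7.22, 8.86, 11.2 and 9.31 CPM in WT DHA mice. It reached 8.23, 15.4, 14.1 and 13.6 CPM in Tg2576 vehicle mice and 11.5, 11.1 and 14.2 CPM in Tg2576 DHA mice. Tg2576 vehicle replicate 1, the mouse with the fewest reads, lay below 7 of the 8 WT mice, and the other 3 of its group lay above all of them. Averaged over both treatments *S1pr3* was 1.35-fold higher in Tg2576 mice (95% confidence interval 1.12 to 1.63, log2 0.43, SE 0.130), with an edgeR adjusted p of 0.184 and an exact permutation p of 0.0127. This call was lost without Tg2576 DHA replicate 3 (log2 0.37) or Tg2576 vehicle replicate 2 (log2 0.38), whereas the difference under vehicle (log2 0.44, SE 0.176) was called only without Tg2576 vehicle replicate 1 (log2 0.60).

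*Cd44* (ENSMUSG00000005087.17, chromosome 2, 102811141 to 102901665, minus strand) encodes the receptor of hyaluronan, a sugar polymer of the matrix. It measured 3.83, 5.32, 3.24 and 4.09 CPM in WT vehicle mice and 5.28, 7.60, 7.03 and 5.56 CPM in WT DHA mice. Tg2576 mice measured 3.18, 10.4, 7.52 and 3.66 CPM under vehicle and 6.69, 7.39 and 8.21 CPM under DHA. The lowest and the highest of all 15 mice were both Tg2576 vehicle mice. The averaged genotype difference was 0.41 on the log2 scale (95% confidence interval -0.0408 to 0.86), with an edgeR adjusted p of 0.490. Under vehicle it was 0.60 and was called only without Tg2576 vehicle replicate 1 (log2 0.81).

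Both secreted acute-phase genes rose. *Lcn2* (ENSMUSG00000026822.14, chromosome 2, 32384633 to 32388252, minus strand) encodes lipocalin 2, which captures iron-carrying siderophores. It had 0.302, 1.35, 0.743 and 0.542 CPM in WT vehicle mice and 0.616, 0.974, 1.55 and 1.92 CPM in WT DHA mice. Tg2576 vehicle mice had 5.0, 2.71, 2.41 and 1.22 CPM and Tg2576 DHA mice 2.38, 2.84 and 4.34 CPM. Of the 7 Tg2576 mice, 6 were above every WT mouse. *Lcn2* had the highest fold of the 9 genes, 3.17 (95% confidence interval 1.94 to 5.20, log2 1.67, SE 0.338), with an edgeR adjusted p of 0.0513 and an exact permutation p of 0.00163. It was called under vehicle (log2 1.99, SE 0.475, exact permutation p = 0.0571) and not under DHA (log2 1.34, SE 0.482). These were not shown to differ (interaction -0.65, 95% confidence interval -2.08 to 0.77). These levels rest on 14 to 112 counts per mouse. All 15 of them were even numbers, as were 79.2% of all counts from 1 to 20 in the table, and whether both reads of a pair were counted was not tested.

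*Serpina3n* (ENSMUSG00000021091.8, chromosome 12, 104406729 to 104414329, plus strand) encodes a serine protease inhibitor of the antichymotrypsin family. It was 56.6, 68.3, 55.3 and 69.4 CPM in WT vehicle mice and 51.0, 89.7, 88.0 and 103 CPM in WT DHA mice. Under vehicle Tg2576 mice had 98.8, 93.7, 104 and 106 CPM, and under DHA they had 75.4, 113 and 119 CPM. The genotypes did not overlap under vehicle and overlapped under DHA, where 3 WT mice were above the lowest Tg2576 mouse. Averaged over treatments *Serpina3n* was 1.41-fold higher in Tg2576 mice (95% confidence interval 1.17 to 1.71, log2 0.50, SE 0.128), with an edgeR adjusted p of 0.132 and an exact permutation p of 0.0102. It was called under vehicle (log2 0.69, SE 0.176) and not under DHA (log2 0.31, SE 0.188), and these were not shown to differ (interaction -0.38, 95% confidence interval -0.93 to 0.16). *Serpina3n* belongs to a cluster of near-identical genes, so the split of reads among them is uncertain. Of the 6 genes of this cluster with enough reads, 1 rose with genotype, *Serpina3n* itself. *Serpina3m*, at 0 to 82 counts, was called for DHA in WT mice (log2 5.29, SE 1.67, adjusted p = 0.647 by edgeR).

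*Stat3* itself was not called. *Stat3* (ENSMUSG00000004040.16, chromosome 11, 100885098 to 100939540, minus strand) shares 72 exonic bases with *Stat5a* on the other strand. It measured 63.5, 64.8, 66.8 and 58.8 CPM in WT vehicle mice and 57.5, 69.6, 63.6 and 63.9 CPM in WT DHA mice. Tg2576 mice measured 73.3, 69.3, 58.9 and 64.2 CPM under vehicle and 63.1, 77.1 and 77.3 CPM under DHA. It had the narrowest range of the 9 genes, its highest mouse being 1.34-fold above its lowest. The averaged genotype difference was 0.13 on the log2 scale (SE 0.0680, edgeR adjusted p = 0.510), and its 95% confidence interval ran from 0.988-fold to 1.21-fold.

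*Socs3* (ENSMUSG00000053113.3, chromosome 11, 117966079 to 117970047, minus strand), the feedback inhibitor, rose. Its level was 2.50, 2.90, 2.03 and 2.26 CPM in WT vehicle mice and 2.33, 3.15, 3.52 and 1.92 CPM in WT DHA mice. In Tg2576 mice the level was 5.68, 4.10, 5.24 and 5.28 CPM under vehicle and 2.92, 4.64 and 6.0 CPM under DHA. Of the 7 Tg2576 mice, Tg2576 DHA replicate 1 alone fell within the WT range. *Socs3* was 1.86-fold higher in Tg2576 mice (95% confidence interval 1.44 to 2.40, log2 0.90, SE 0.175), with an edgeR adjusted p of 0.0486 and an exact permutation p of 0.00204. It was called under vehicle (log2 1.07, SE 0.240) and not under DHA (log2 0.72, SE 0.256), where it was called without Tg2576 DHA replicate 1 (log2 0.96) or WT DHA replicate 3 (log2 0.86). The interaction was -0.34 (95% confidence interval -1.08 to 0.40). Under vehicle 4 of the 9 genes, *Gfap*, *Vim*, *Serpina3n* and *Socs3*, were higher in every Tg2576 mouse, as were 2.18% of all genes. Under DHA this held for 3 of the 9, *Gfap*, *Vim* and *Lcn2*, and for 3.91% of all genes.

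**Figure D2:**
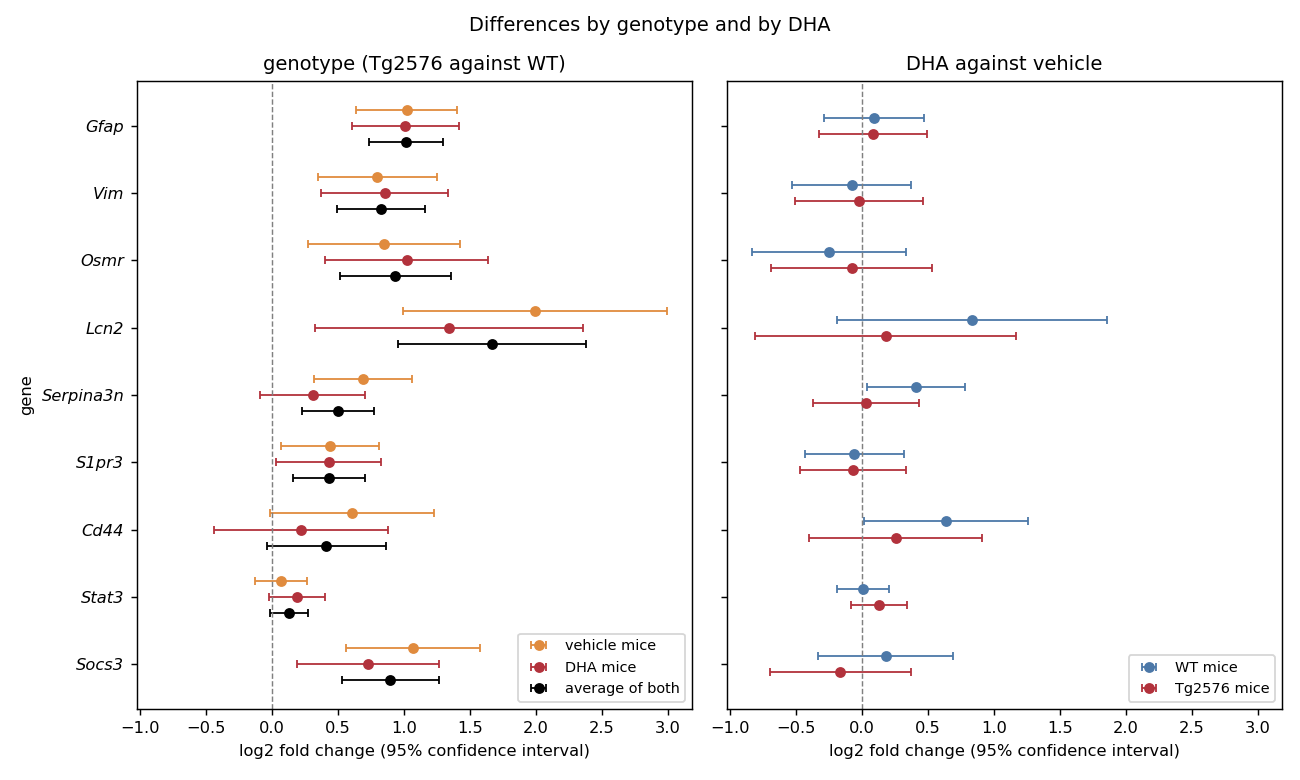
Log2 fold change with its 95% confidence interval (horizontal axes) for each of the 9 genes, on the left for Tg2576 against WT mice under vehicle, under DHA and averaged, and on the right for DHA against vehicle in WT and in Tg2576 mice. The averaged genotype intervals of 7 genes lie above 0, whereas every DHA interval in Tg2576 mice includes 0.

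DHA moved none of the 9 genes past the threshold in either genotype. In WT mice 0 of the 9 were called (1.38% of all genes called, 2 of the 9 at an unadjusted p under 0.05), in Tg2576 mice 0 of the 9 (0.353% called, 0 of the 9 under 0.05), and for the interaction of genotype and DHA 0 of the 9 (0.829% called, 0 of the 9 under 0.05). These counts are from edgeR, and DESeq2 and limma-voom also called 0 in each. In Tg2576 mice the differences ran from -0.17 for *Socs3* to 0.25 for *Cd44* on the log2 scale. The 95% confidence intervals for DHA against vehicle in Tg2576 mice were 0.795-fold to 1.40-fold for *Gfap*, 0.703-fold to 1.37-fold for *Vim*, 0.616-fold to 1.29-fold for *Socs3* and 0.570-fold to 2.24-fold for *Lcn2*. Changes within these bounds were not excluded with 4 against 3 mice.

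In WT mice the median DHA difference of the 9 genes was 0.0895 on the log2 scale. The 2 genes with an unadjusted p under 0.05 were *Serpina3n* (log2 0.41, SE 0.176, edgeR adjusted p = 0.819) and *Cd44* (log2 0.64, SE 0.295, edgeR adjusted p = 0.838). For *Cd44* the groups overlapped by 1 mouse on each side, the lowest DHA mouse at 5.28 CPM and the highest vehicle mouse at 5.32 CPM, and the exact permutation p was 0.0571. In a fit of the WT groups alone *Cd44* was called. For *Serpina3n*, WT DHA replicate 1 was below all WT vehicle mice while the other 3 were above all of them. Without that mouse *Serpina3n* was called for DHA in WT mice (log2 0.59) and for the interaction (log2 -0.57). Comparisons of DHA and of genotype share mice and are not independent of each other.

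Some mice were high or low for most of the set. Tg2576 DHA replicate 3 was the highest of its group for 9 of the 9 genes and the highest of all mice for 5. WT DHA replicate 1 was the lowest of its group for 8 genes and the lowest of all mice for 6. After the group means were removed, 32 of the 36 pairs of genes correlated positively across the 15 mice, with a median Pearson r of 0.408. Whether pairs of other genes vary together as much was not tested. Of these pairs, 9 had a permutation p under 0.05, and 1, *Gfap* with *S1pr3*, had a Benjamini-Hochberg adjusted p under 0.05. Their Pearson r was 0.853 (permutation p = 0.00130, adjusted p = 0.0468) and their Spearman rho was 0.864 (permutation p = 0.00201, adjusted p = 0.0724). Without the 2 mice farthest from the median of *Gfap*, r was 0.815. *Gfap* with *Stat3* gave an r of -0.0401 (permutation p = 0.911, adjusted p = 0.962) and a rho of -0.10 (permutation p = 0.786, adjusted p = 0.902). *Stat3* with its target *Socs3* gave an r of 0.461 (permutation p = 0.190, adjusted p = 0.359) and a rho of 0.50 (permutation p = 0.125, adjusted p = 0.322).

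**Figure D3:**
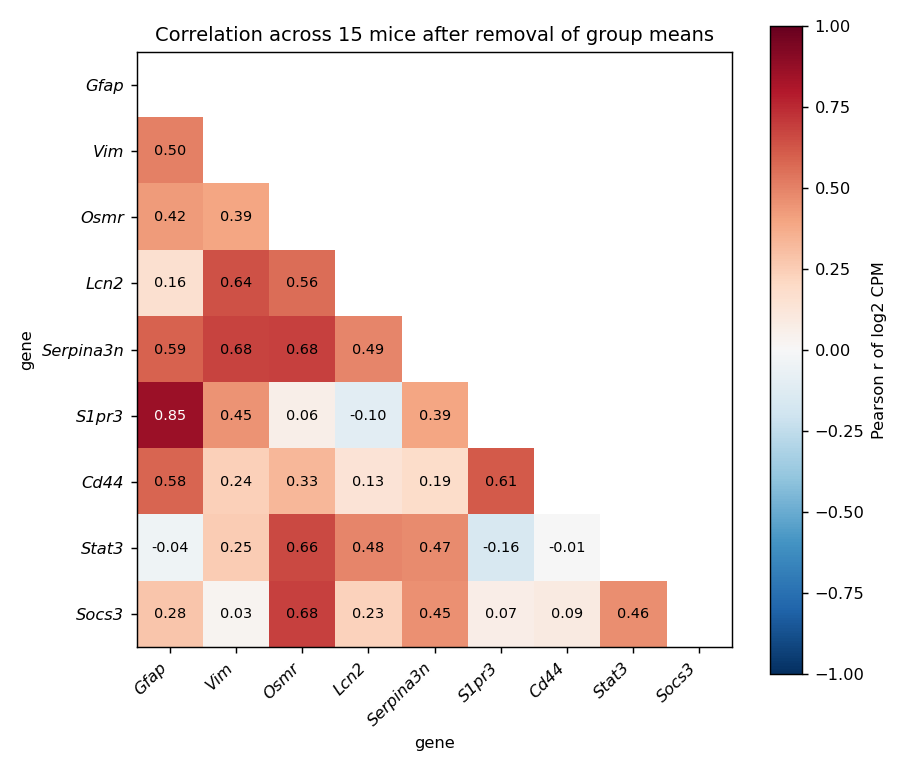
Pearson r of log2 CPM between each pair of the 9 genes (rows and columns) across the 15 mice after the mean of each group was subtracted, with red for positive and blue for negative values. *Gfap* with *S1pr3* has the highest value, 0.853, and *Stat3* lies between -0.16 and -0.00668 against *Gfap*, *S1pr3* and *Cd44*.

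Other reactive astrocyte genes were called higher in Tg2576 mice in the averaged comparison, with 1 called lower under vehicle. Of all genes, 3.85% were called and 1.94% were called higher in the averaged comparison, and 3.09% were called under vehicle. Of 13 pan-reactive astrocyte genes, 7 of which belong to the set, 7 rose and 0 fell in the averaged comparison, with a median log2 difference of 0.83. Of the 6 outside the set 1 rose, and their median was 0.74. The 1 called gene outside the set was *Aspg*, an asparaginase, at 8.04 ± 1.69 CPM in WT vehicle, 8.85 ± 1.72 in WT DHA, 19.2 ± 3.82 in Tg2576 vehicle and 16.4 ± 4.49 CPM in Tg2576 DHA mice (SD). Every Tg2576 mouse was above every WT mouse for *Aspg* (log2 1.07, SE 0.145, adjusted p = 0.00457 by edgeR). Of 11 genes listed for a neurotoxic type of reactive astrocyte 5 rose (median 0.54), among them *Serping1*, the inhibitor of complement C1 (log2 0.73, SE 0.142, adjusted p = 0.0486 by edgeR). Of 11 tested genes listed for astrocytes after ischaemia 4 rose (median 0.46), among them *Cd14*, the lipopolysaccharide co-receptor (log2 0.81, SE 0.176, adjusted p = 0.0739 by edgeR). Which cells gave the calls on this list was not tested. Another gene of this list, *Ptgs2*, the inducible cyclooxygenase, was called lower in Tg2576 under vehicle (log2 -0.52, SE 0.155, adjusted p = 0.250 by edgeR) and lower with DHA in WT mice (log2 -0.56, SE 0.155, adjusted p = 0.540 by edgeR). Of 20 homeostatic astrocyte genes, edgeR called 0 in the averaged comparison, 4 had an unadjusted p under 0.05, and the median was -0.0348. The glutamate transporter *Slc1a2*, a gene of this list, was not among those 4 (log2 -0.0586, SE 0.114, adjusted p = 0.906 by edgeR). The summed level of the 20 genes was 8878 to 10382 CPM in WT vehicle, 9191 to 9506 in WT DHA, 8572 to 9998 in Tg2576 vehicle and 8912 to 9328 CPM in Tg2576 DHA mice. Under vehicle, *Slc4a4*, a sodium bicarbonate cotransporter, was called lower in Tg2576 (log2 -0.47, SE 0.139, adjusted p = 0.242 by edgeR).

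**Figure D4:**
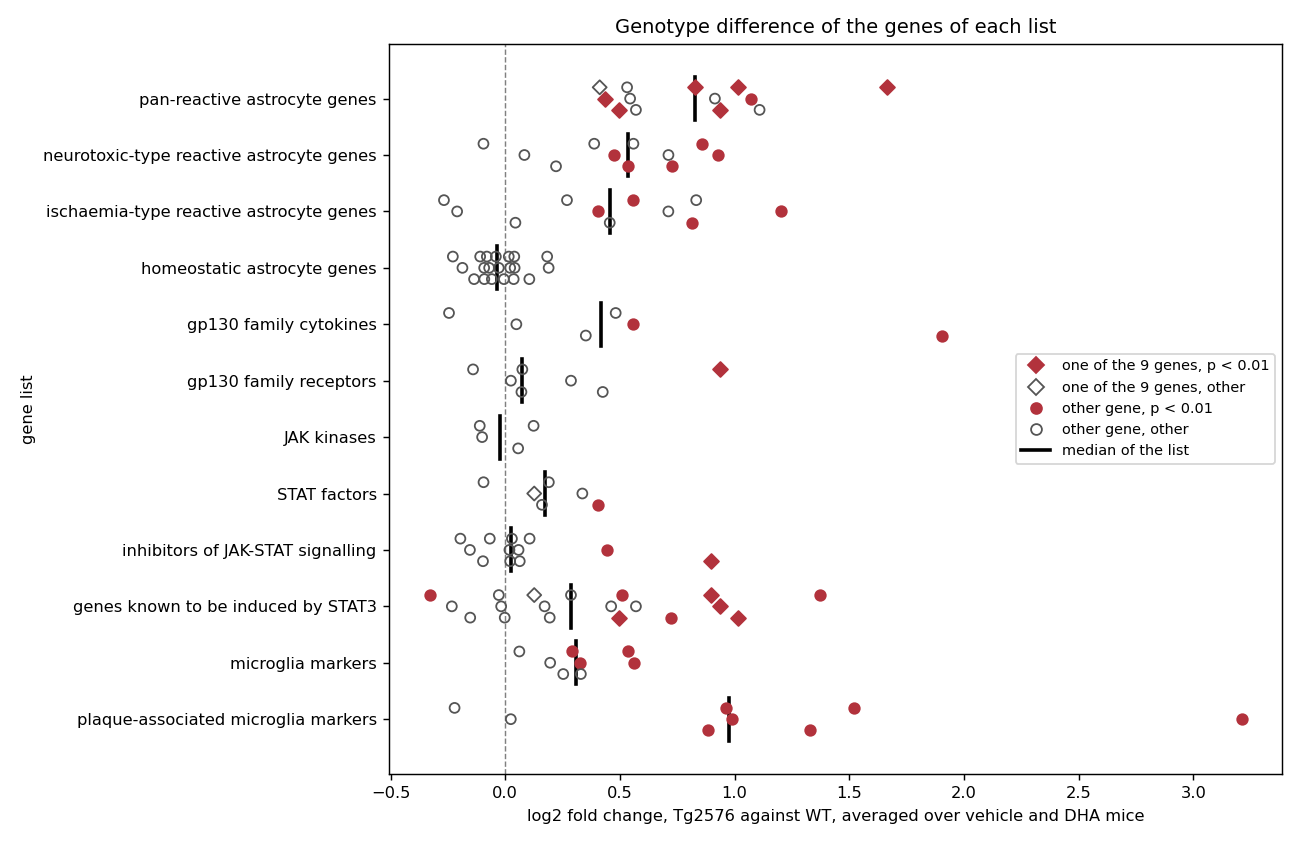
Log2 fold change of Tg2576 against WT mice averaged over treatments (horizontal axis) for each tested gene of 12 lists, with filled marks for an unadjusted edgeR p under 0.01, diamonds for the 9 genes and a black bar for the median of each list. Homeostatic astrocyte genes centre on -0.0348 with none filled, whereas pan-reactive genes, a list that shares members with the 9 genes, centre on 0.83.

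Along the STAT3 pathway, calls outside the set were found among ligands, STAT factors, inhibitors and target genes in the averaged comparison. There 3.85% of all genes were called, beside 0 of 6 receptors and 1 of 11 inhibitors outside the set. Of 6 gp130 family cytokines with enough reads 2 rose, *Osm*, which encodes oncostatin M, the ligand of OSMR (0 to 18 counts per mouse, log2 1.90, SE 0.590, adjusted p = 0.207 by edgeR), and *Clcf1* (log2 0.56, SE 0.184, adjusted p = 0.239 by edgeR). *Il6* had at most 4 counts in any mouse and was not tested. Of 7 receptors of the family 1 rose, *Osmr*, and the shared chain gp130, *Il6st*, was not called (log2 0.0245, SE 0.114, adjusted p = 0.964 by edgeR). *Cntfr*, the receptor of ciliary neurotrophic factor, was called lower in Tg2576 under DHA (log2 -0.35, SE 0.0950, adjusted p = 0.536 by edgeR). Of 4 JAK kinases edgeR called 0 in the averaged comparison, and 0 had an unadjusted p under 0.05 there. Under vehicle *Jak1* was lower in Tg2576 mice at an unadjusted p under 0.05 (log2 -0.26, SE 0.0931, adjusted p = 0.338 by edgeR). Its interaction also had a p under 0.05 (log2 0.32, SE 0.137, adjusted p = 0.845 by edgeR). Of 6 tested STAT factors 1 rose, *Stat6* (log2 0.41, SE 0.114, adjusted p = 0.162 by edgeR). Of 12 inhibitors of the pathway 2 rose, *Socs3* and the phosphatase *Ptpn6* (log2 0.44, SE 0.149, adjusted p = 0.246 by edgeR), which microglia also express.

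Of 19 genes known to be induced by STAT3, 7 rose and 1 fell, with a median of 0.29, and 4 of those that rose belong to the set. Of the 14 genes outside the set, 3 rose and 1 fell, with a median of 0.18, beside 3.85% of all genes called. *Bcl3*, a nuclear regulator of NF-kappaB (log2 1.37, SE 0.300, adjusted p = 0.0739 by edgeR), and *Icam1*, an adhesion molecule (log2 0.72, SE 0.172, adjusted p = 0.0971 by edgeR), were among these 3. The gene that fell was *Ccnd1*, cyclin D1 (log2 -0.33, SE 0.0971, adjusted p = 0.179 by edgeR). *Vegfa*, vascular endothelial growth factor, was called for DHA in Tg2576 mice, at 77.9 ± 15.4 CPM (SD, n = 4) under vehicle and 116.8 ± 14.98 CPM (SD, n = 3) under DHA (log2 0.58, SE 0.161, adjusted p = 0.999 by edgeR).

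Partners of the single receptors and secreted proteins formed 3 short lists, to be read against the 3.85% of all genes called in the averaged comparison. In the sphingosine 1-phosphate pathway 2 of 11 genes rose, *S1pr3* and *Sgpl1*, the lyase that degrades the lipid (log2 0.19, SE 0.0598, adjusted p = 0.221 by edgeR). Of 8 tested genes for hyaluronan and CD44 ligands edgeR called 0 in the averaged comparison, and 1 had an unadjusted p under 0.05. *Hyal1*, a hyaluronidase, was called lower in Tg2576 under vehicle (log2 -0.93, SE 0.246, adjusted p = 0.198 by edgeR). Of 6 genes for lipocalin 2 receptors and iron handling 1 rose, *Tfrc*, the transferrin receptor (log2 0.30, SE 0.0972, adjusted p = 0.225 by edgeR), and with DHA in WT mice it was called lower (log2 -0.44, SE 0.133, adjusted p = 0.600 by edgeR).

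Of the lists of cell types, those of microglia had 6 and 4 calls among 8 markers each. The other lists, of 2 to 7 tested genes, had 0 or 1 call each. These counts are from the averaged comparison, where 3.85% of all genes were called. Of 8 plaque-associated microglia markers 6 rose, with a median of 0.98, and those with the lowest p were *Cst7*, cystatin F (log2 3.21, SE 0.386, adjusted p = 0.00457 by edgeR), and *Cd68*, a lysosomal protein of phagocytes (log2 0.99, SE 0.143, adjusted p = 0.00884 by edgeR). Their summed level was 131 to 191 CPM in WT and 143 to 259 CPM in Tg2576 mice. Of 8 microglia markers 4 rose (median 0.31), among them *Csf1r*, the receptor of colony stimulating factor 1 (log2 0.29, SE 0.0738, adjusted p = 0.121 by edgeR), at summed levels of 281 to 387 CPM in WT and 325 to 508 CPM in Tg2576 mice. None of these markers was at 0 in a whole group. *Vim*, *Osmr*, *Lcn2*, *Cd44* and *Socs3* are also expressed by microglia, endothelium, meninges or leukocytes, and the part of those cells in the differences was not tested. Of 7 endothelial markers 1 rose, *Slco1a4* (log2 0.33, SE 0.105, adjusted p = 0.212 by edgeR), at summed levels of 137 to 192 CPM in WT and 137 to 211 CPM in Tg2576 mice. Of 7 meningeal markers edgeR called 0, and 0 had an unadjusted p under 0.05. All 7 had a log2 difference above 0 (median 0.58), at summed levels of 28.9 to 76.4 CPM in WT and 24.8 to 110.1 CPM in Tg2576 mice. Choroid plexus markers, 0 of 5 called (median 0.41), summed to 60.2 to 5797 CPM in WT and 139.6 to 5130.2 CPM in Tg2576 mice, and all 3 Tg2576 DHA mice were at 3080.4 CPM or above. Of 2 neutrophil markers with enough reads 1 rose, *S100a8* (log2 1.77, SE 0.513, adjusted p = 0.174 by edgeR, 0 to 58 counts per mouse), and *Ly6g*, which defines neutrophils, had at most 2 counts in any mouse. Of 5 neuronal markers 1 fell, *Rbfox3* (log2 -0.17, SE 0.0574, adjusted p = 0.252 by edgeR), and of 5 ependymal and 5 oligodendrocyte markers edgeR called 0, with medians of -0.12 and -0.0713.

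Libraries held 17372864 to 46596489 counts (median 25645977) from a single flow cell and lane, so no sequencing batch could be compared, and no pair of libraries within a group agreed within sampling noise. As a check of the labels, counts on mouse *App*, to which reads of the human transgene can align in part, were higher in every Tg2576 than in every WT mouse (log2 0.55, SE 0.0623, adjusted p = 0.00171 by edgeR).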

How the data were processed

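Hippocampal RNA of 15 female mice was sequenced. The authors deposited raw counts per gene, made by alignment with STAR 2.6.1c and counting over exons with featureCounts 1.6.0 on GENCODE M25 (GRCm38), with no strand setting, per the file headers and the submitters' processing notes. The study's methods name a stranded mRNA kit and the labels a SMARTER kit. Counts of each mouse entered as deposited, at 17372864 to 46596489 per mouse. Replicates are mice by the labels' numbering. Gene symbols, from GENCODE M21, matched 55141 of 55401 genes.

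Genes passing filterByExpr (minimum count 10) were fitted over all 4 groups with edgeR 4.0.16 (R 4.3.3, TMM, robust quasi-likelihood), and 6 contrasts were tested. Each standard error was derived from the log2 difference and its F statistic (difference over root F), and intervals from the t distribution with the moderated total degrees of freedom. Exact permutation tests, two-sided, used log2 CPM with a prior count of 2, and the smallest p possible was 0.0286 within a treatment. Pair correlations used 100000 permutations within groups (scipy 1.17.1). The fit was also run on simulated data, with counts drawn independently for each gene. Such data cannot show how calls hold where genes vary together from mouse to mouse. Alternatives were DESeq2 1.42.0, limma-voom (limma 3.58.1), no TMM factors, no filter, no robust option, a replicate block, a fit of the groups compared alone and each mouse left out.

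The 9 genes and 24 lists were chosen with earlier results of these data known. From each list, up to 4 genes with the lowest p under 0.01 and up to 3 with the highest CPM could be named, and for each of the 9 genes up to 3 that correlated best. *Icam1*, *Ccnd1*, *Vegfa*, *App*, *Il6*, *Ly6g*, *Nes* and *Des* were named outside this rule, after their values were seen.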

Additional observations from a re-analysis of the deposited data

How the results depend on the processing

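Of the calls on the 9 genes, 7 averaged over treatments and 6 under vehicle were also the counts with DESeq2 and limma-voom, and no difference reversed its direction in any alternative where it was called. Under DHA, 5 of the 9 genes were called with DESeq2 and 5 without a filter on low counts, as *Lcn2* and *Socs3* then passed. *Osmr* lost its call under DHA with limma-voom (log2 0.91) and *Vim* with the 2 groups alone (log2 0.86), while *Lcn2* gained one in both. For DHA in WT mice, a fit of the 2 groups alone called 1 of the 9, *Cd44*, and 431 of all genes. For DHA in Tg2576 mice, 69 genes were called in all, 126 with DESeq2, 126 without the filter and 29 with the 2 groups alone. The interaction called 162 genes, 247 with DESeq2 and 289 without the filter. The cause of these shifts was not tested. A fit of 2 groups alone gives no interaction or averaged value.

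With 1 mouse left out at a time, the 9 genes had 5 to 7 calls under vehicle, 2 to 4 under DHA, 0 to 1 for DHA in WT mice, 0 to 0 for DHA in Tg2576 mice, 0 to 1 for the interaction and 6 to 7 averaged. Of all genes, 312 (without WT vehicle replicate 2) to 965 (without Tg2576 vehicle replicate 1) were called under vehicle, 190 (without WT DHA replicate 4) to 460 under DHA, 156 (without WT vehicle replicate 1) to 331 for DHA in WT mice, 53 to 312 (without Tg2576 DHA replicate 1) for DHA in Tg2576 mice, 87 (without WT vehicle replicate 1) to 527 (without Tg2576 DHA replicate 1) for the interaction and 510 to 1008 averaged.

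Same-numbered mice were not shown to be paired, since 4 of 21 such pairs had a correlation of deviations over 0.1 (range -0.244 to 0.213). With the replicate block, the 9 genes had 6, 3, 0, 0, 0 and 7 calls, as without it, and all genes had 661, 246, 311, 54, 116 and 725, in the order under vehicle, under DHA, DHA in WT, DHA in Tg2576, interaction and averaged. In the averaged comparison the adjusted p over all alternatives, DESeq2 and limma-voom included, was 1.44e-10 to 0.0215 for *Gfap*, 1.08e-04 to 0.155 for *Vim* and 2.90e-04 to 0.132 for *Socs3*.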

Other observations

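After removal of the group means, the genes of all 19536 that followed 6 of the 9 genes most closely over the 15 mice were *Mtrf1l* for *Gfap* (r = 0.902), *Galnt7* for *Osmr* (r = 0.946), *Fbxw8* for *Lcn2* (r = 0.886), *Igha* for *S1pr3* (r = 0.943), *Abcd3* for *Cd44* (r = 0.927) and *Arid4a* for *Stat3* (r = 0.958). The closest were *1700084E18Rik* for *Vim* (r = 0.907), *Gm12532* for *Serpina3n* (r = 0.870) and *Pisd-ps2* for *Socs3* (r = 0.906). For *Vim* the second was *Lgals3*, which encodes galectin 3 (r = 0.885). For *S1pr3* the second was *Cnn3*, which encodes the actin-binding protein calponin 3 (r = 0.913). *Arid4a* with *Stat3* was the highest of these values. They are descriptions over mice that share a sequencing lane and a library method, each chosen from among the highest of 19536 values.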
